A study of Homo sapiens with 45 samples.

Results

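The 8 genes described here, which cells switch on through fibroblast growth factor (FGF) and the kinase ERK, were followed over the human arm of a motor neuron differentiation series: IL17RD, ETV4, ETV5, SPRY1, SPRY2, SPRY4, DUSP4 and DUSP6. They were chosen by symbol as feedback inhibitors and ETS factors of the FGF-ERK pathway, and all 8 were found among the 58233 rows of the count table and among the 19436 genes that passed the filter on low counts. The cells were derived from H9, a long-established line of human embryonic stem cells. Before day 0, from day -3 to day -1, they were grown on fibronectin in N2B27 medium with the WNT activator CHIR99021 (3 µM), bFGF (5 ng/ml), SB431542 (10 µM) and DMH1 (2 µM), which block activin/TGF-β and BMP receptors, and a ROCK inhibitor. On day 0 they were dissociated and replated in retinoic acid (RA, 100 nM) and SAG (500 nM), which turns on Hedgehog signalling by binding Smoothened. Polyadenylated RNA was sequenced on days 0, 1, 2 and 4 to 15, with 3 libraries a day and 45 in all. Day 0 is labelled control and is the only day that stands for the FGF-containing medium, so FGF withdrawal, RA, SAG, replating and time cannot be told apart. The labels call the libraries of a day bioreps and do not say that they were separate cultures, so p-values measure only the spread between these samples, which may be technical.

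FGFs bind receptor tyrosine kinases, which act through adaptors, RAS, RAF and MEK to activate ERK. Active ERK enters the nucleus, relieves repression by CIC and activates ETS factors, and among the genes then transcribed are inhibitors of the pathway itself. IL17RD (also called SEF) is a membrane protein that dampens the signal at the receptor and at MEK-ERK, the Sprouty proteins SPRY1, SPRY2 and SPRY4 act upstream, between receptor and RAF, and the dual-specificity phosphatases DUSP6, which is cytoplasmic and selective for ERK, and DUSP4, which is nuclear and also acts on other MAP kinases, remove phosphate from the kinase. ETV4 and ETV5 are ETS factors of the PEA3 group. In the vertebrate tail bud FGF keeps neuromesodermal progenitors undifferentiated, and RA opposes it as the spinal cord forms.

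Library totals ran from 22835854 to 39066286 expected counts. Levels of one gene between days are given as CPM, counts scaled to the library total with TMM factors, and levels between genes as deposited TPM, which are also scaled for gene length. The mitochondrial share of counts was 2.24% to 3.21% on day 0, 3.65% to 5.29% on day 1, 1.80% to 2.35% on day 8 and 4.08% to 4.35% on day 15. The cells changed type at the same time. Markers of neuromesodermal progenitors (7 genes, FGF17 among them) summed to between 1749 and 1849 CPM on day 0, with 6 of 7 at 1 CPM or more, to between 65.1 and 67.3 CPM on day 1 and to between 1.63 and 1.83 CPM on day 15. Markers of neural progenitors (7 genes) summed to 737 to 902 CPM on day 0, with PAX6 and HES5 under 1 CPM, to 3948 to 4266 CPM on day 1 and to 1446 to 1703 CPM on day 15. Markers of neurons and motor neurons (9 genes) summed to 608 to 631 CPM on day 0, with ISL1, MNX1 and SLC18A3 under 1 CPM, to 4284 to 4726 CPM on day 8 and to 3148 to 3623 CPM on day 15. Glial lineage markers (8 genes) summed to 275 to 397 CPM on day 15 and to 77.8 to 89.2 CPM on day 0, with SOX10, GFAP and AQP4 under 1 CPM on both days, while mesoderm and endothelium markers (7 genes) summed to 5.79 to 11.6 CPM on day 15. The part of these shifts in the results was not tested, and in such bulk samples fewer cells of a type and less RNA per cell cannot be told apart.

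Promoter windows of 300 bases, from 250 bases before to 50 bases after a transcript start, were read from RefSeq on GRCh38.p14 for IL17RD, SPRY1, SPRY2, SPRY4 and DUSP6, 9 windows in all. They are shown because these genes parted on day 1: IL17RD and SPRY2 nearly disappeared, while SPRY1 and DUSP6 kept much of their level. The capitals mark the ETS core GGAA, read on either strand (TTCC on the printed strand), 5′ to 3′ in the direction of transcription.
IL17RD, chr3:57170268-57170567, minus strand: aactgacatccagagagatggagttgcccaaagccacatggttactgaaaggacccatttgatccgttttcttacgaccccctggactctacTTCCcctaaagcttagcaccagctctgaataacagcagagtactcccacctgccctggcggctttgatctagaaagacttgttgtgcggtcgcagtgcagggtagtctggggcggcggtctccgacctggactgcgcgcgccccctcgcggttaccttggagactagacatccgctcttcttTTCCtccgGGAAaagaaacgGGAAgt
SPRY2, chr13:80341077-80341376, minus strand: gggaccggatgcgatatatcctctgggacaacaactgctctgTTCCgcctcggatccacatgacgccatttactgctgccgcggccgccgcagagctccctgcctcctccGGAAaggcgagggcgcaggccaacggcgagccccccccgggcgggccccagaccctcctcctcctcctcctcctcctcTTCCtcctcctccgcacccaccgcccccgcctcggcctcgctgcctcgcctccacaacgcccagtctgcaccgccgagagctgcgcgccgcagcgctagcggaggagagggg
SPRY1, chr4:123396545-123396844, plus strand: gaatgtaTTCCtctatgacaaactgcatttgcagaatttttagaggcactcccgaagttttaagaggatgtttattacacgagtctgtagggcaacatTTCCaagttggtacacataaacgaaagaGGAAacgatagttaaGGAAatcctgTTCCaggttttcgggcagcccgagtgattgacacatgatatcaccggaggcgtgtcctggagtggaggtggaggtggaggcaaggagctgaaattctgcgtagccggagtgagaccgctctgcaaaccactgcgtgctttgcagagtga
DUSP6, chr12:89352452-89352751, minus strand: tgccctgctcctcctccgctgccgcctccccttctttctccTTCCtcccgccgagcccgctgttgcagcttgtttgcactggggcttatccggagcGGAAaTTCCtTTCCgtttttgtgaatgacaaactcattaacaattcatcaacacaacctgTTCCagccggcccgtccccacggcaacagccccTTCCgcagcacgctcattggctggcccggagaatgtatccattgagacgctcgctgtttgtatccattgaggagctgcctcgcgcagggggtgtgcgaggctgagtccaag
The core was found 4 times in this window of IL17RD, 3 times in that of SPRY2, 5 times in that of SPRY1 and 6 times in that of DUSP6. Of 35116 such windows in the table, 95.5% hold at least 1 core, with a median of 3 and quartiles of 2 and 5, so the window of DUSP6 holds more than the upper quartile and the other 3 lie between the quartiles. Of the windows not printed, the second of IL17RD holds 1, those of SPRY2 hold 4 and 5, and the second of SPRY1 holds 4. The window of SPRY4, which also nearly disappeared on day 1, holds 4, so counts of the lost and kept genes overlap. No window was read for ETV4, ETV5 or DUSP4, which this comparison leaves out. The start used for the printed window of DUSP6 lies 770 bases from the gene start in GENCODE, against 11 for IL17RD, 175 for SPRY2 and 0 for SPRY1. None of the 9 windows holds the longer ETS site CCGGAAGT, which is in 4.14% of all windows, or the AP-1 site TGANTCA (7.71%). Nor does any hold TGAATGAA or TGAATGGA (2.63%), the only CIC octamers searched. Each of these sequences was read on both strands. Other octamers that CIC may bind were not searched, so these windows may hold them. The printed window of DUSP6 does hold a close form, tccattga, which differs in 1 base from TGAATGGA read on the other strand. Binding of CIC to it was not tested. A match is a description of letters and no evidence of binding, and no match says only that those letters are not in these windows.

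Day 1 was compared with day 0 to see what followed the change of medium. By edgeR's quasi-likelihood test with Benjamini-Hochberg adjustment over the 19436 genes, 7 of the 8 genes were lower on day 1 and 1 was higher, where 31.7% of all genes were lower and 30.1% higher. A fall of at least 16-fold was called for 5 of the 8, IL17RD, ETV5, ETV4, SPRY4 and SPRY2, and for 1.02% of all genes. In all 8 the day 1 libraries lay apart from those of day 0, which held for 67.8% of all genes. The median log2 change was -4.81 over the 8 genes and 0 over all genes tested.

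IL17RD (ENSG00000144730, chr3:57089982-57170306, minus strand, GRCh38), the inhibitor at the receptor, had 7.37, 7.47 and 7.36 CPM on day 1, against 727, 766 and 663 CPM on day 0. The day 1 libraries were close together and held 1.03% of the day 0 level, a log2 change of -6.60 ± 0.076 (SE, adjusted p 3.9e-41, edgeR). It ranked 31 from the bottom of the 19436 genes by log2 change. ETV5 (ENSG00000244405, chr3:186046308-186110318, minus strand) had 2.32, 2.52 and 1.95 CPM on day 1, against 151, 149 and 139 CPM on day 0. ETV4 (ENSG00000175832, chr17:43527844-43579620, minus strand) had 1.49, 1.83 and 2.12 CPM on day 1, against 109, 101 and 109.8 CPM on day 0. Both ETS factors fell: the log2 changes were -6.00 ± 0.12 for ETV5 and -5.89 ± 0.19 for ETV4 (adjusted p 3.1e-33 and 6.8e-25, edgeR), and the share left, 1.55% for ETV5 and 1.70% for ETV4, had overlapping ranges over the 9 pairs of libraries (1.29% to 1.81% and 1.36% to 2.10%).

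The 3 Sprouty genes did not move together. SPRY2 (ENSG00000136158, chr13:80335976-80340951, minus strand) had 3.88, 4.05 and 4.54 CPM on day 1, against 103, 109 and 90.9 CPM on day 0. SPRY4 (ENSG00000187678, chr5:142310427-142326455, minus strand) had 2.65, 2.42 and 2.47 CPM on day 1, against 80.3, 96.3 and 68.8 CPM on day 0. Both fell to a few percent of day 0, 4.12% for SPRY2 (log2 change -4.61 ± 0.094) and 3.07% for SPRY4 (-5.02 ± 0.21), and these shares overlapped between libraries. SPRY1 (ENSG00000164056, chr4:123396795-123403760, plus strand) had 16.3, 15.4 and 15.8 CPM on day 1, against 24.0, 22.9 and 23.3 CPM on day 0. It kept 67.5% of its level (log2 change -0.57 ± 0.10, adjusted p 8.0e-06, edgeR), and its 9 ratios, 64.0% to 71.0%, lay apart from those of SPRY2 and SPRY4.

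The phosphatases also kept much of their level. DUSP6 (ENSG00000139318, chr12:89347232-89353271, minus strand) had 106, 108 and 105 CPM on day 1, against 254, 253 and 241 CPM on day 0. It kept 42.7% (log2 change -1.23 ± 0.059, adjusted p 1.7e-20, edgeR). DUSP4 (ENSG00000120875, chr8:29333064-29350668, minus strand) had 78.7, 79.8 and 81.1 CPM on day 1, against 69.3, 72.5 and 63.2 CPM on day 0. This was 117% of day 0, a log2 change of 0.22 ± 0.096 (adjusted p 0.041, edgeR), and the call was lost without day 0 replicate 1 or 3, without any single day 1 library, without a filter on low counts and on log2(TPM + 1), with adjusted p from 0.0011 to 0.16 over 15 alternatives. Of the exonic bases of DUSP6, 1875 (40.5%) lie under the antisense gene AC024909.2, and whether the counting used strand is not given in the sources used here. That gene stood at 4.63 ± 0.72 CPM on day 1 and 0.776 ± 0.24 CPM on day 0 (SD, n = 3 each). ETV4 shares 68 bases (1.89%) with DHX8 on the other strand and ETV5 shares 164 bases (2.83%) with DGKG on the same strand.

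**Figure D1:**
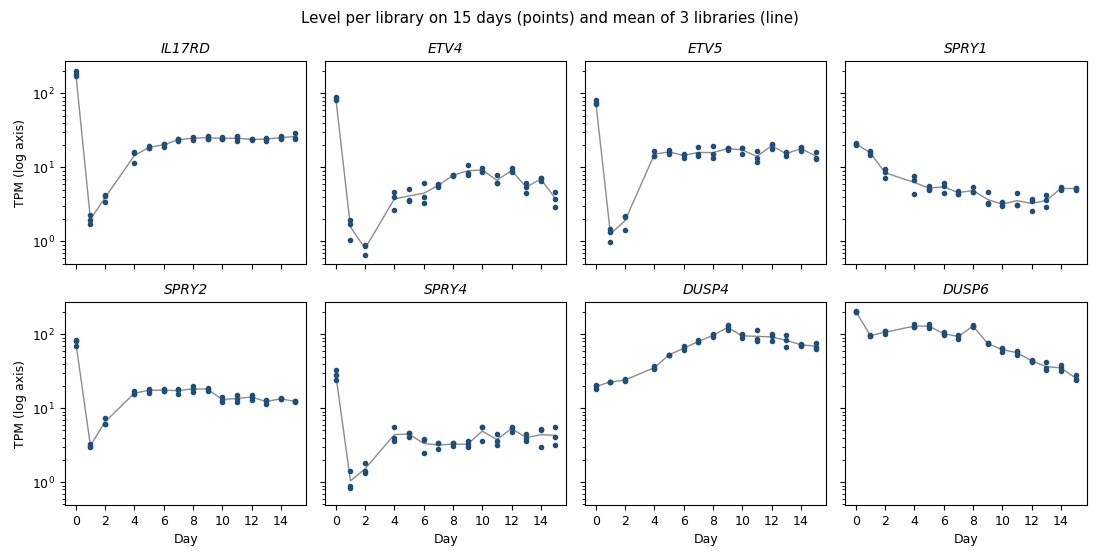
Level of each gene in TPM (log axis) against day of differentiation, with 1 point per library and a line through the mean of the 3 libraries of each day. IL17RD, ETV4, ETV5, SPRY2 and SPRY4 drop steeply on day 1 and come back in part by day 4, SPRY1 declines over several days, DUSP4 climbs to day 9 and DUSP6 declines after day 8.

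Taken as levels per gene length, DUSP6 was the highest of the set on both day 1 and day 0, with other genes behind it on each. Together the 8 genes held 143 ± 0.80 TPM on day 1 and 699 ± 26 TPM on day 0 (SD, n = 3 each). On day 1 DUSP6 alone made up 67.0% of the summed TPM, with DUSP4 at 15.8% and SPRY1 at 10.9%. On day 0 the order was DUSP6 (202 ± 1.2 TPM), IL17RD (187 ± 15 TPM), ETV4 (86.6 ± 3.7 TPM), SPRY2 (77.9 ± 7.1 TPM), ETV5 (75.9 ± 4.4 TPM), SPRY4 (28.6 ± 4.5 TPM), SPRY1 (20.9 ± 0.65 TPM) and DUSP4 (19.7 ± 1.4 TPM). DUSP6 and IL17RD overlapped, as did SPRY2 with both ETV4 and ETV5, and SPRY1 with DUSP4, while ETV4 lay apart from ETV5.

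Between day 1 and day 4 the genes that had nearly disappeared came back in part. By the same test 7 genes were higher on day 4 than on day 1, where 24.4% of all genes were, and SPRY1 was lower, where 22.8% were. ETV5 had 23.5, 23.5 and 22.2 CPM on day 4, against 2.32, 2.52 and 1.95 CPM on day 1, and gained most (log2 change 3.33 ± 0.12, adjusted p 7.6e-24, edgeR). IL17RD had 49.9, 56.4 and 47.3 CPM on day 4 and a log2 change of 2.79 ± 0.072. SPRY2 (19.5, 20.8 and 19.8 CPM on day 4) and SPRY4 (10.6, 12.4 and 10.4 CPM) rose by 2.27 ± 0.096 and 2.14 ± 0.22 on the log2 scale. Day 4 lay apart from day 1 in all 8 genes, as it did in 54.2% of all genes.

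The daily mean of ETV4 was lowest on day 2, not day 1. It had 1.49, 1.83 and 2.12 CPM on day 1, 1.26, 1.16 and 0.949 CPM on day 2, and 4.95, 5.61 and 3.33 CPM on day 4 (log2 change from day 1 of 1.35 ± 0.22, adjusted p 3.5e-06, edgeR). The change from day 1 to day 2 did not pass (log2 change -0.67, adjusted p 0.082, edgeR), though it did with DESeq2 (0.029) and on log2(TPM + 1) (0.023). Day 2 rests on 95 counts over 3 libraries, the fewest of any gene and day in the set. Already on day 2, 4 of the 8 genes were higher than on day 1 (IL17RD, ETV5, SPRY2 and SPRY4), where 11.4% of all genes were, and ETV4 was not among them. SPRY1 was lower on day 2, where 11.9% of all genes were, and on day 4 had 7.27, 6.83 and 5.10 CPM, against 16.3, 15.4 and 15.8 CPM on day 1 (log2 change -1.31 ± 0.11, adjusted p 6.8e-13, edgeR). DUSP4 (127, 115 and 114.5 CPM on day 4, against 78.7, 79.8 and 81.1 CPM on day 1) and DUSP6 (147, 138 and 129 CPM on day 4, against 106, 108 and 105 CPM on day 1) rose less, by 0.58 ± 0.095 and 0.38 ± 0.059 on the log2 scale.

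None of the 5 steeply falling genes came back to its day 0 level on a later day. The highest daily mean after day 0 was 12.6% of day 0 for IL17RD (day 9), 9.38% for ETV4 (day 10), 15.2% for SPRY4 (day 12), 21.0% for SPRY2 (day 5) and 21.2% for ETV5 (day 12). In each of the 5 the libraries of day 0 lay apart from the next highest day. Measured from day 1, the whole of the later course left 6 genes higher on day 15, where 39.4% of all genes were, and DUSP6 and SPRY1 lower, where 35.1% were. The order of the later days was mostly not resolved: of 14 neighbouring pairs of days in the order of levels, the libraries overlapped in 8 for IL17RD, 9 for ETV4, 9 for SPRY2, 11 for ETV5 and 11 for SPRY4.

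From day 4 to day 8, as neuron markers climbed, 3 genes were higher on day 8 (27.1% of all genes) and 2 were lower (26% of all genes). DUSP4 had 303, 285 and 309.8 CPM on day 8, against 127, 115 and 114.5 CPM on day 4, the largest gain of the set (log2 change 1.33 ± 0.094, adjusted p 2.6e-14, edgeR). ETV4 had 8.50, 8.97 and 9.33 CPM on day 8, against 4.95, 5.61 and 3.33 CPM on day 4 (0.96 ± 0.18). IL17RD had 80.2, 80.8 and 84.2 CPM on day 8, against 49.9, 56.4 and 47.3 CPM on day 4 (0.68 ± 0.059). Libraries of both days were apart in these 3 genes, as in SPRY1 and SPRY4, and in 58.6% of all genes.

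SPRY1 had 4.77, 4.77 and 4.68 CPM on day 8, against 7.27, 6.83 and 5.10 CPM on day 4 (log2 change -0.43 ± 0.12, adjusted p 0.0020, edgeR). That call was lost without replicate 1 (-0.32) and on log2(TPM + 1) (-0.28). SPRY4 had 7.58, 8.18 and 8.21 CPM on day 8, against 10.6, 12.4 and 10.4 CPM on day 4 (-0.47 ± 0.18, adjusted p 0.028), and that call was lost in 7 of 15 alternatives, among them without day 4 replicate 2 and without any single day 8 library. ETV5, SPRY2 and DUSP6 did not pass, with log2 changes of -0.02 ± 0.091, 0.08 ± 0.080 and -0.13 ± 0.058, though DUSP6 was called lower (-0.17) without day 4 replicate 3.

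**Figure D2:**
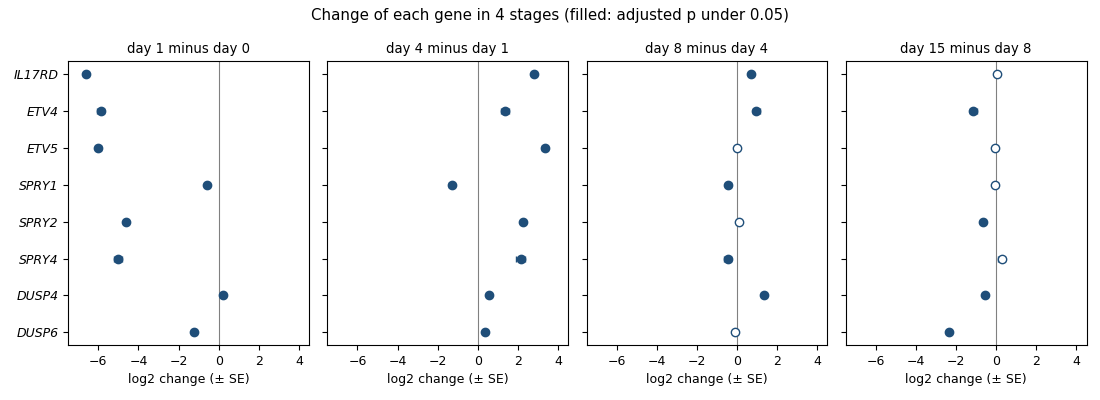
Log2 change of each gene between the later and the earlier day of 4 comparisons, with bars for ± 1 SE (often smaller than the point) and filled points for an adjusted p under 0.05. The first panel spans -6.60 (IL17RD) to 0.22 (DUSP4), the fall of DUSP6 is the largest on day 15 against day 8 (-2.34), and SPRY1 is the only gene to the left of 0 in the second panel.

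After day 8 the daily mean of DUSP6 was lower on each day than on the one before, while DUSP4 was highest on day 9. The courses had differed before that: on day 6 against day 5 DUSP4 was called higher (log2 change 0.28, adjusted p 0.049, edgeR), a call lost when any 1 replicate was left out, without a filter on low counts and on log2(TPM + 1), and DUSP6 was lower (-0.37, adjusted p 3.2e-05). DUSP6 had 125, 130.0 and 126 CPM on day 8, 74.7, 74.2 and 74.7 CPM on day 9, 45.2, 44.8 and 46.4 CPM on day 12 and 21.9, 25.3 and 27.8 CPM on day 15. The libraries of neighbouring days were apart at every step from day 8 to day 13, and day 15 was below day 8 by 2.34 ± 0.063 on the log2 scale (adjusted p 2.3e-27, edgeR), which placed it 224 from the bottom of the 19436 genes. DUSP4 had 303, 285 and 309.8 CPM on day 8, 384, 353 and 403 CPM on day 9, its highest day, and 199, 181 and 222 CPM on day 15. Day 9 was above day 8 by 0.34 ± 0.091 on the log2 scale (adjusted p 0.0060, and 0.15 without replicate 1), and day 15 was below day 9 by 0.92 ± 0.092 (adjusted p 2.0e-10, edgeR).

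Seen per gene length, DUSP4 held 0.0976 times the TPM of DUSP6 on day 0, 0.749 times on day 8, 1.65 times on day 9 and 2.69 times on day 15. On day 15 DUSP4 was the highest of the set at 68.9 ± 6.8 TPM and made up 42.9% of the summed TPM, with DUSP6 at 25.6 ± 2.2 TPM (SD, n = 3 each).

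**Figure D3:**
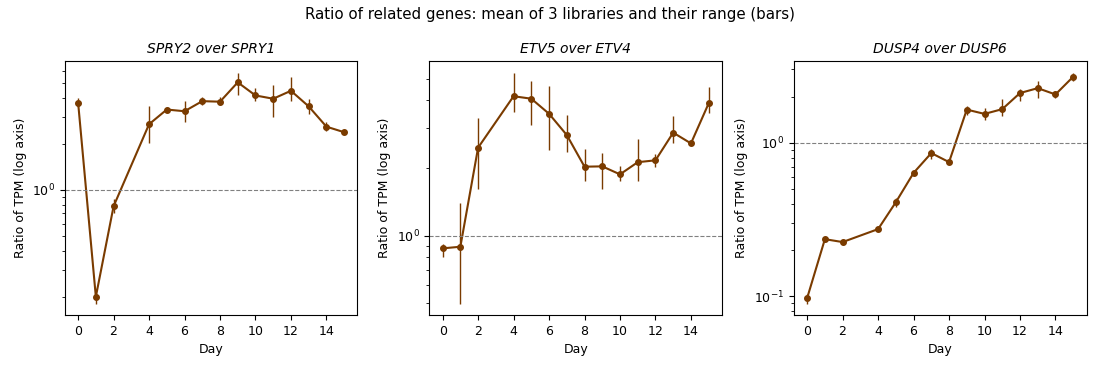
Ratio of TPM within 3 pairs of related genes (log axis) against day, with points for the mean of 3 libraries, bars for their range and a dashed line at equal TPM. SPRY2 over SPRY1 crosses below 1 on days 1 and 2, ETV5 over ETV4 is above 1 from day 2 on, and DUSP4 over DUSP6 is above 1 from day 9 on.

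Within the other pairs the balance moved as well. SPRY2 held 3.72 ± 0.27 times the TPM of SPRY1 on day 0, 0.200 ± 0.017 times on day 1, 0.780 ± 0.082 times on day 2 and 3.76 ± 0.23 times on day 8 (SD, n = 3). SPRY1, the lowest of the 3 Sprouty genes on day 0, was the highest on day 1 at 15.6 ± 0.98 TPM, with SPRY2 at 3.11 ± 0.16 TPM and SPRY4 at 1.04 ± 0.31 TPM. ETV5 held 0.877 ± 0.063 times the TPM of ETV4 on day 0, 0.892 ± 0.46 times on day 1, 4.18 ± 0.98 times on day 4, 2.03 ± 0.36 times on day 8 and 3.88 ± 0.62 times on day 15. The 3 libraries of day 4 (3.57 to 5.31) lay above all those of day 0 (0.804 to 0.921) in this ratio.

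On day 15 against day 8, 4 genes were lower, where 25.8% of all genes were, and 0 were higher, where 24.9% were; by edgeR 0 were higher at an unadjusted p under 0.05 also, and by DESeq2 and limma 0 at an adjusted one. Beside both phosphatases these were ETV4 and SPRY2. ETV4 had 4.09, 3.13 and 4.89 CPM on day 15, against 8.50, 8.97 and 9.33 CPM on day 8 (log2 change -1.14 ± 0.17, adjusted p 7.1e-07, edgeR). SPRY2 had 13.0, 13.3 and 13.8 CPM on day 15, against 19.3, 21.4 and 22.8 CPM on day 8 (-0.66 ± 0.081, adjusted p 7.7e-09). DUSP4 fell by 0.58 ± 0.091 on the log2 scale between the same days. IL17RD (83.5, 79.9 and 90.1 CPM on day 15, against 80.2, 80.8 and 84.2 CPM on day 8), ETV5, SPRY1 and SPRY4 did not pass, with log2 changes of 0.05, -0.07, -0.05 and 0.27. Of the 4, SPRY4 passed where replicate 2 was left out (log2 change 0.43), which made 1 gene higher.

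Part of the late fall depended on which day closed the series. With day 14 in place of day 15, 3 genes were lower than on day 8 (21.6% of all genes): DUSP6 by a log2 change of -1.90 ± 0.062, SPRY2 by -0.50 ± 0.080 and DUSP4 by -0.47 ± 0.091. ETV4 then stood at 8.12, 7.15 and 7.54 CPM on day 14, below each day 8 library, and did not pass (-0.23 ± 0.16, adjusted p 0.26, edgeR). ETV5 was the 1 gene called higher (21.6% of all genes), at 27.8, 24.1 and 29.7 CPM on day 14 against 22.6, 21.1 and 24.8 CPM on day 8. The groups overlapped, and its call (0.25 ± 0.088, adjusted p 0.018) was lost without day 14 replicate 1 or 3 or day 8 replicate 2. That call was also lost without replicate 1 of every day and on log2(TPM + 1). SPRY4 was called higher (0.62) where day 14 replicate 2, the low library of that day at 7.45 CPM, was left out. On day 15 against day 9, 5 genes were lower (25% of all genes), DUSP6, ETV4, DUSP4, SPRY2 and ETV5, and SPRY1 was higher (22% of all genes), a call lost without replicate 1 (0.39) or replicate 2 (0.33). IL17RD was called lower (-0.16) where replicate 3 was left out.

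Odd and even days alternated late in the series in some of the genes. All 8 differed among days 0 to 15 and among days 1 to 15, as did 91.5% and 87.4% of all genes. Over days 11, 13 and 15 against days 10, 12 and 14, ETV4, ETV5, SPRY4 and DUSP6 were lower on the odd days, where 9.77% of all genes were, and 0 genes were higher, where 5.69% were, by edgeR at an unadjusted p under 0.05 and by DESeq2 and limma as well. ETV4 ran from 3.13 to 8.20 CPM with a median of 5.21 on the odd days and from 7.15 to 11.3 CPM with a median of 9.36 on the even days (log2 change -0.72 ± 0.096, adjusted p 1.5e-06, edgeR), which placed it 227 from the bottom of 19436 genes. ETV5 ran from 19.6 to 25.5 CPM with a median of 21.7 on the odd days and from 24.1 to 33.3 CPM with a median of 28.0 on the even days (-0.35 ± 0.051). In all 8 genes the odd and even libraries overlapped, and 0.206% of all genes had none in common. The p-values of this contrast measure the spread between libraries of a day, and not that among the odd days or among the even days.

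Day by day, ETV4 averaged 9.99 CPM on day 10, 7.22 on day 11, 9.80 on day 12, 5.68 on day 13, 7.60 on day 14 and 4.04 on day 15. ETV5 averaged 26.5, 22.3, 31.1, 22.2, 27.2 and 21.7 CPM on the same days. The daily means of both turned at every step. ETV4 also declined within the odd days and within the even days, and each odd day follows its even one. Its odd-even change and rank therefore include part of that decline, and how much was not tested. The step down to day 13 passed in ETV4 and ETV5 (1.97% of all genes were lower there), as did that to day 15 (3.28%), and of the steps up only that of ETV5 to day 12 did (2.2% of all genes were higher). These single steps rest on few libraries: without replicate 1 none of the 5 calls held (adjusted p 0.11 to 0.55), without replicate 2 that of ETV5 to day 12 did (0.039), and on log2(TPM + 1) both falls of ETV5 were lost. Replicate 3 was the highest of its day on days 11, 13 and 15 in IL17RD, ETV4, SPRY2, SPRY4, DUSP4 and DUSP6. The daily mean of DUSP6 declined through all 6 days, so its lower mean on the odd days (-0.35 ± 0.036) cannot be told apart from its decline, since each odd day follows its even one. The call of SPRY4 (-0.34 ± 0.10, adjusted p 0.021) was lost without replicate 1, without a filter on low counts and on log2(TPM + 1). DUSP4 was called lower on the odd days (-0.22) where replicate 3 was left out. The protocol replaces the medium every other day, but the labels do not say how long before sampling, and its part in this pattern was not tested.

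**Figure D4:**
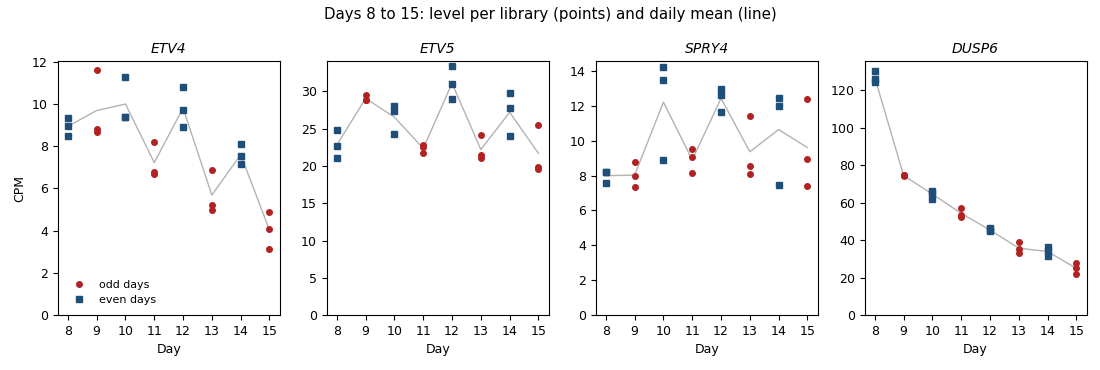
CPM of ETV4, ETV5, SPRY4 and DUSP6 from day 8 to day 15 (linear axis from 0), with red circles for libraries of odd days, blue squares for those of even days and a line through the daily means. ETV4 and ETV5 move down on days 11, 13 and 15 and up on days 12 and 14 in their daily means, and the daily mean of DUSP6 declines from day 10 on.

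Over the 15 daily means, IL17RD, ETV4, ETV5, SPRY2 and SPRY4 followed each other closely (Pearson r of log2 CPM between 0.88 and 0.98 for their 10 pairs), with the high day 0 shared by all. Without day 0 these pairs ran from 0.72 (ETV4 with SPRY2) to 0.97 (IL17RD with ETV5). DUSP4 then had r of 0.66 (SPRY4) to 0.93 (ETV4) with these genes, against -0.10 (SPRY4) to 0.28 (ETV5) over 15 days. SPRY1 and DUSP4 ran opposite (r = -0.91, and -0.89 without day 0). Without day 0 SPRY1 also ran opposite to IL17RD, ETV4, ETV5, SPRY2 and SPRY4, with r from -0.91 (IL17RD) to -0.72 (SPRY2). Over 15 days those values were between -0.12 (ETV5) and 0.22 (SPRY4). Over all 28 pairs the median r was 0.24, and 0.67 without day 0. These r values describe days that share a time course, and carry no test. Among 11275 protein-coding genes with at least 10 CPM on their highest day, those most like IL17RD over the 15 days were APOO (0.98), MYO1D (0.98) and SEMA3A (0.97), the last a repulsive guidance cue of axons. Most like ETV4 were ESD (0.96), BNIP3 (0.95) and LGALS8 (0.95), and most like ETV5 were APOO (0.96), VGF (0.96), a secreted neuropeptide precursor, and MYO1D (0.94). For SPRY2 they were IGF2BP3 (0.96), SUPT3H (0.94) and RPRD1A (0.93), and for SPRY4 EOGT (0.97), PALM3 (0.95) and SEMA3A (0.94).

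SPRY1 was most like MARVELD2 (0.98), CTSV (0.97) and SMIM20 (0.96), and without day 0 most like FGFR1 (0.97), the receptor gene. DUSP4 was most like CDKN1C (0.99), a cyclin-dependent kinase inhibitor, ST3GAL1 (0.99) and CEP170 (0.98). DUSP6 was most like DPPA4 (0.98), a gene of pluripotent cells, ARID3A (0.98) and PDE3B (0.97). DPPA4 still averaged 92.8 CPM on day 4 and 79.8 CPM on day 8, where POU5F1, another gene of pluripotent cells, averaged 0.047 and 0.021 CPM. The lists without day 0 differed for the 5 steeply falling genes. SPRY2, for example, was then most like CLRN1 (0.99), the third PEA3 factor ETV1 (0.99) and the motor neuron progenitor factor OLIG2 (0.99), and over 15 days r with OLIG2 was 0.036.

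Other genes of the pathway were counted over the same days. On day 1 against day 0, where 30.1% of all genes were higher and 31.7% lower, all 6 tested FGF receptor and co-receptor genes were higher. FGFR2 had 243 ± 4.4 CPM on day 1 and 35.4 ± 9.8 CPM on day 0 (log2 change 2.78 ± 0.15), and FGFR3 had 102 ± 3.9 CPM on day 1 and 23.8 ± 5.8 CPM on day 0 (2.11 ± 0.11, SD, n = 3 each). FGFRL1, a receptor with no kinase domain, rose by 1.02 ± 0.082 on the log2 scale, and the co-receptor gene KLB had 92 counts on day 1 and 0 on day 0, so that it was at least 36.1-fold higher if day 0 is set to 3 counts over its libraries, a bound that covers counting error only. Of 15 tested genes listed as ligands (of 22 listed), 7 were lower and 4 higher. The 15 include FGF11, FGF12, FGF13 and FGF14, which code for intracellular proteins and not for secreted ligands. Ligand counts and medians here and below include them. FGF17 had 2.48 ± 0.31 CPM on day 1 and 216 ± 73 CPM on day 0 (-6.43 ± 0.20), and FGF8, a ligand made in the tail bud, 1.84 ± 0.069 CPM on day 1 and 45.1 ± 12 CPM on day 0 (-4.61 ± 0.28).

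Of 12 other genes listed as feedback inhibitors or ERK phosphatases, 5 were lower and 4 higher on day 1 than on day 0. Their median log2 change was -0.25, and these counts are near the shares over all genes. The list, here and below, is broader than its name. It holds FLRT3, known to promote FGF signalling, and RASA1, NF1 and PEBP1, which restrain RAS or RAF but are not known as ERK-induced feedback genes. SPRED3, a Sprouty-related inhibitor of RAS-ERK, had 2.21 ± 0.24 CPM on day 1 and 13.0 ± 0.77 CPM on day 0 (-2.55 ± 0.12). The nuclear ERK phosphatase gene DUSP5 went the other way, with 74.1 ± 2.1 CPM on day 1 and 21.2 ± 3.2 CPM on day 0 (1.81 ± 0.10), and so did FLRT3 (2.01 ± 0.14), coding for a membrane protein that binds FGF receptors, and ERRFI1 (1.51 ± 0.047), an inhibitor of the EGF receptor. Of 5 other MAP kinase phosphatase genes, 2 were higher and 0 lower, DUSP8 by 2.16 ± 0.27 and DUSP1 by 0.78 ± 0.11, and 0 were lower also at an unadjusted p under 0.05 by edgeR and by DESeq2 and limma. Of 12 other ERK-induced genes, 6 were lower and 5 higher (median -0.07). ETV1 had 2.31 ± 0.73 CPM on day 1 and 28.3 ± 0.34 CPM on day 0 (-3.64 ± 0.15) and EGR1, an immediate early transcription factor gene, 3.81 ± 0.72 CPM on day 1 and 17.2 ± 4.3 CPM on day 0 (-2.19 ± 0.17), while MYC had 26.1 ± 1.2 CPM on day 1 and 4.98 ± 0.45 CPM on day 0 (2.39 ± 0.20). Of 20 genes of the RAS-ERK cascade itself, 10 were lower and 6 higher, with SHC1, an adaptor, at -1.73 ± 0.13 and KSR1, a scaffold, at -1.12 ± 0.072. Median log2 changes were 1.56 for the receptors, -0.43 for the ligands, 0.62 for the MAP kinase phosphatases and -0.12 for the cascade, beside 0 over all genes.

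On day 4 against day 1, where 24.4% of all genes were higher and 22.8% lower, the ERK-induced genes were mostly higher, 10 of 12 with 1 lower and a median log2 change of 1.78, beside 0.01 over all genes. ETV1 had 25.6 ± 1.3 CPM on day 4 (3.50 ± 0.15), EGR1 39.8 ± 2.6 CPM (3.40 ± 0.17) and PHLDA1 20.4 ± 0.76 CPM (3.13 ± 0.10). Of the other feedback inhibitors 8 were higher and 1 lower, with SPRED3 up by 2.21 ± 0.13 and DUSP5 down, at 11.8 ± 1.6 CPM on day 4 against 74.1 ± 2.1 CPM on day 1 (-2.65 ± 0.11). The other MAP kinase phosphatase genes had 4 higher and 0 lower, with 0 lower also by edgeR's unadjusted p and by DESeq2 and limma. Of the receptors 3 were higher and 3 lower: FGFR1 had 336 ± 16 CPM on day 4 and 993 ± 9.3 CPM on day 1 (-1.56 ± 0.057). Of the ligands 6 were higher and 3 lower, and FGF18 had 8.74 ± 0.57 CPM on day 4 and 1.47 ± 0.093 CPM on day 1 (2.58 ± 0.24). The cascade had 9 higher and 2 lower. Median log2 changes were 0.24 for the feedback inhibitors, 1.07 for the phosphatases, -0.14 for the receptors, 0.29 for the ligands and 0.15 for the cascade.

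Between day 4 and day 8, 7 of the 12 ERK-induced genes were higher and 1 lower, beside 27.1% and 26% of all genes, with EGR1 up by 0.71 ± 0.13 and FOS by 1.56 ± 0.19 on the log2 scale. EGR1 averaged 21.9 CPM on day 7, 65.2 on day 8 and 12.5 on day 9, and DUSP6 averaged 97.4, 127 and 74.5 CPM on those days. The day 4 mean of EGR1, 39.8 CPM, lay above those of days 7 and 9, so its rise rests on day 8. Of the 8 genes, 1 was called higher on day 8 than on day 7, DUSP6 (0.38 ± 0.059, adjusted p 2.7e-05, edgeR), where 5.19% of all genes were. With DESeq2 or a replicate block 3 were, DUSP4 and ETV4 beside it, and without replicate 3 it was DUSP6 and ETV4. The other feedback inhibitors split evenly, 5 higher and 5 lower. Among the rest, the MAP kinase phosphatase genes had 3 higher and 1 lower, the ligands 4 and 2, the receptors 1 and 3 and the cascade 8 and 2, of which the 4 of 15 tested ligands higher are near the share over all genes. The intracellular FGF11, FGF12 and FGF14 are among these 4. Median log2 changes were 0.39 for the ERK-induced genes, -0.06 for the feedback inhibitors, 0.44 for the phosphatases, 0.24 for the ligands, -0.54 for the receptors and -0.03 for the cascade.

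On day 15 against day 8, 0 of the 12 ERK-induced genes were higher and 7 were lower (median -0.72, beside 0.00 over all genes, of which 24.9% were higher and 25.8% lower), and 0 were higher also by edgeR's unadjusted p and by DESeq2 and limma. ETV1 had 19.0 ± 2.4 CPM on day 15 and 36.8 ± 1.7 CPM on day 8 (-0.95 ± 0.11). CCND1, coding for cyclin D1, had 131 ± 32 CPM on day 15 and 295 ± 13 CPM on day 8 (-1.17 ± 0.13). EGR1 had 25.6 ± 3.4 CPM on day 15 and 65.2 ± 4.7 CPM on day 8 (-1.35 ± 0.13). The day 15 mean of EGR1 lay above those of day 7 (21.9 CPM) and day 9 (12.5 CPM). Its fall therefore rests on day 8 as the earlier day. Of the receptors 4 were lower and 1 higher, FGFR3 by -1.36 ± 0.11 and FGFR2 by -0.93 ± 0.14 among them, and FGF18 was lower (-2.73 ± 0.22) among ligands of which 6 were higher and 3 lower. The intracellular FGF11, FGF12 and FGF14 are among the 6 higher. Of the 7 neural progenitor markers 6 were lower over the same days, and their part in these values was not tested. The other feedback inhibitors had 3 higher and 5 lower, the MAP kinase phosphatase genes 1 and 1, and the cascade 5 and 2. Median log2 changes were -0.59 for the receptors, -0.04 for the ligands, -0.02 for the feedback inhibitors, -0.11 for the phosphatases and -0.05 for the cascade.

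**Figure D5:**
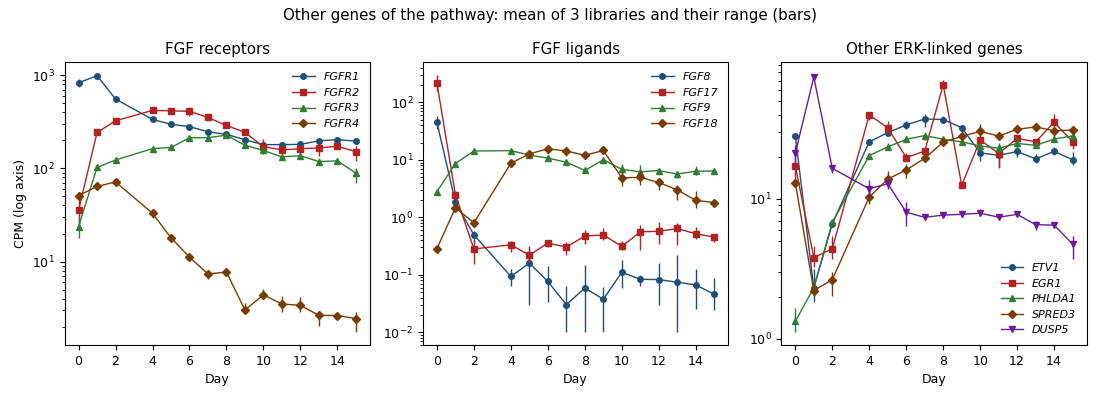
CPM (log axis) against day for FGF receptors, FGF ligands and other ERK-linked genes, with points for the mean of 3 libraries and bars for their range (a library at 0 is drawn at 0.01). FGF8 and FGF17 drop on day 1 and stay low, FGFR2 and FGFR3 climb on day 1, ETV1 dips on day 1 to 2.31 CPM and is back at 25.6 CPM on day 4, and DUSP5 peaks on day 1 at 74.1 CPM.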

How the data were processed

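Polyadenylated RNA was sequenced, per the labels' protocols. Per the submitters' processing notes, bcl2fastq 2.20.0, RSEM and GRCh38 were used. Which aligner, gene annotation and strand setting went with them is not given in the sources used here, and overlapping genes are therefore uncertain. The authors deposited expected counts, RSEM estimates that share ambiguous reads among genes, of which 92.5% are whole, and TPM values that the authors scaled for gene length and library total. Expected counts were rounded here. Genes were matched to GENCODE release 29 by identifier (57895 of 58233 rows).

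The rounded counts were analysed in R 4.3.3 by edgeR 4.0.16, using TMM factors (0.925 to 1.06), the default filter on low counts by day and a robust quasi-likelihood fit. Day was a factor, and all 45 libraries, with 30 residual degrees of freedom, gave 1 estimate of the spread. P-values from the quasi-likelihood F test were adjusted by Benjamini-Hochberg across the genes of each comparison, and calls were made below 0.05. The SE is the log2 change divided by the root of F. For 3 against 3 libraries the smallest p of an exact permutation test is 0.1. Library totals differed by less than 2-fold, and genes of a few CPM carry larger errors. Likeness used log2 CPM with a prior count of 2.

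The members and lists were chosen with earlier results of these data known. All 8 members are named, with up to 4 called genes per pathway list and comparison by size of log2 change, and the 3 genes most like each member. A few others (AC024909.2, DHX8, DGKG, and genes given on further days) were named after their values were seen. So were genes of the ligand and feedback lists that are named for their role. No list was tested as a set. Alternatives were DESeq2 1.42.0, its size factors in edgeR, no filter (37223 genes), limma 3.58.1 on log2(TPM + 1) (18075 genes reaching 1 TPM in 3 libraries), a replicate block, the 2 days alone and libraries left out. The steps were tested on simulated data. The mouse samples of the series were not analysed here.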

Additional observations from a re-analysis of the deposited data

How the results depend on the processing

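Of 904 values of single members under the alternatives, 850 kept their direction and side of the threshold, 28 lost a call, 7 gained one and 19 changed sign, all of the last in changes that were not called. The falls of IL17RD, ETV4, ETV5, SPRY2, SPRY4, DUSP6 and SPRY1 on day 1 passed in all 15 alternatives each. IL17RD on day 14 against day 8 gave -0.0033 with DESeq2, -0.0032 with its size factors and from -0.023 to 0.028 over all alternatives, SPRY1 0.080 on log2(TPM + 1) and from -0.054 to 0.080, and on log2(TPM + 1) SPRY1 gave 0.076 on day 15 against day 8 and IL17RD 0.044 against day 9. On day 8 against day 4, ETV5 gave 0.060 on log2(TPM + 1), 0.0049 without a filter and from -0.11 to 0.060 over all, and DUSP6 0.00099 on log2(TPM + 1). The cause was not tested. With libraries left out, IL17RD and SPRY1 on day 14 against day 8 ran from -0.023 and up to 0.042, and ETV5 on day 8 against day 4 up to 0.058.

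On log2(TPM + 1), a test on fewer genes, all genes lower numbered 4393 (day 15 against 1), 3105 (day 15 against 9), 2792 (day 4 against 1), 3015 (day 8 against 4) and 1007 (late odd against even days), with 6 and 7 pathway genes lower on day 4 against 1 and day 8 against 4. There, 0 members were higher on day 1 against 0 and on day 14 against 8, and 0 were lower on day 8 against 4. Without a filter 0 were higher on day 1 against 0 and 1 was lower on day 8 against 4. Leaving out libraries gave 0 to 1 member higher on day 1 against 0, 0 to 2 on day 14 against 8, 0 to 1 on day 15 against 8 and against 9, and 0 to 3 lower on day 8 against 4, with 9 (without replicate 1) to 16 pathway genes higher on day 15 against 8. For late odd against even days, where the main counts are 1105 higher and 1899 lower, it gave 316 (without replicate 1) to 708 (without replicate 2) genes higher and 646 to 1197 lower for the same replicates. Of 112 member steps between neighbouring days, 21 were higher and 23 lower, against 12 to 24 higher and 14 to 25 lower with libraries left out, the lowest without replicate 1. The median r was 0.67 without day 0.

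Deviations of same-numbered libraries from their daily means correlated between -0.034 and 0.071 in the comparisons of days 0, 1, 4, 8, 9, 14 and 15, and between -0.16 and 0.22 over the 15 pairs of days 10 to 15. In 0 of those pairs did all 3 numbers exceed 0.1, so the libraries were taken to share only a number. Day 15 against day 14 came near, at 0.092, 0.22 and 0.21, and there each library was most like the one of its own number. With a replicate block, 5830 genes were higher and 6171 lower on day 1 against day 0, and the counts of members called were the same in the comparisons of days 1, 4, 8, 14 and 15 with an earlier stage and in the late odd against even days. Of the steps between neighbouring days 25 were then higher and 23 lower. The added calls were ETV5 on day 5 (adjusted p 0.044), DUSP4 on days 7 (0.036) and 8 (0.046) and ETV4 on day 8 (0.048). Depth limits ETV4, ETV5, SPRY4 and SPRY1 most: ETV4 rests on 95 counts over the 3 libraries of day 2 and 149 on day 1.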
